A study of Mus musculus with 2 samples.

Results

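The mitochondrial respiratory chain subunits that are encoded in the nucleus were examined in B cells of wild-type and Ccr7 knock-out mice. Members were taken by gene name from the array design: names starting with Nduf (complex I), Sdha, Sdhb, Sdhc or Sdhd (complex II), Uqcr (complex III), Cox followed by a digit from 4 to 8 (complex IV) or Atp5 (complex V). This rule used no measured value and gave 83 of the 27745 genes named on the array, with 116 of its 41174 probes. Complex I had 56 of these probes, complex II 5, complex III 10, complex IV 20 and complex V 25. The name rule also took 5 genes whose products are no subunits: the complex I assembly factors Ndufaf1 and Ndufa12l (now Ndufaf2), and Cox4nb (now Emc8), Cox7a2l and Atp5s (now Dmac2l).

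B cells were sorted by flow cytometry from peripheral lymph nodes and their RNA was taken at once, with no culture. Wild-type mice were C57BL/6J, and knock-out mice were of the strain B6.129P2(C)-Ccr7tm1Rfor/J, which carries a targeted allele of the chemokine receptor gene Ccr7 in every cell of the animal. No treatment is stated for either genotype, and no age of the mice is stated. The 12 sorted samples, 6 per genotype, were combined in pools of 3, so that 2 two-colour arrays each compared 1 wild-type pool with 1 knock-out pool. The knock-out was labelled with Cy5 on array 1 and with Cy3 on array 2, and n is 2 arrays throughout. Each array averages 3 sorted samples per genotype, so the spread between single samples is not seen.

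Complex I oxidises NADH and complex II oxidises succinate, and both pass electrons to ubiquinone. Complex III moves them on to cytochrome c, and complex IV, cytochrome c oxidase, delivers them to oxygen. Complexes I, III and IV pump protons across the inner mitochondrial membrane, and complex V, the ATP synthase, makes ATP as the protons flow back. Most subunits are made from nuclear genes and imported, while a smaller set is encoded in mitochondrial DNA. Resting B cells draw on oxidative phosphorylation, and both it and glycolysis increase when B cells are activated.

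Between 58.4% and 68.8% of spots were well above background in each of the 4 channels, and no spot was saturated. Ccr7 had log2 ratios (knock-out over wild-type, as throughout) of -1.11 and -0.74. Their mean was -0.93 ± 0.15 (SE, n = 2), with a limma adjusted p of 0.105. Every SE given is the moderated one of limma, in which the spread of a probe is drawn toward that of all probes. Whether the deletion removes the sequence under the Ccr7 probe is not known. All 12 listed B cell markers were well above background. Of 12 T cell markers, 11 were above background, with a median log2 ratio of -0.39. Of these, 6 had an unadjusted limma p below 0.05, all 6 lower in the knock-out (against 6.12% of all probes), and 0 passed after adjustment. These 6 were dim, with mean log2 intensities of 6.77 (Il7r) to 8.33 (Cd3d), against 13.20 for Lck. Cd4 and Cd3g, also dim at 7.01 and 6.80, were at -0.03 and 0.01. The summed T cell signal, on a log2 scale, was 13.71 in the wild-type and 13.88 in the knock-out on array 1, and 13.43 and 13.46 on array 2. Lck, the brightest of the 11 T cell markers, was at 0.16. Among plasma cell markers Jchain had ratios of 1.89 and 1.72 and was called (limma adjusted p 0.00871). Xbp1 was at 0.70, Sdc1 at -0.64, Prdm1 at -0.25 and Irf4 at -0.21. The median of these 5 was -0.21. The B cell factor Pax5 was at -0.82 and the proliferation marker Mki67 at 0.72, neither called. Each had the widest mean of its list. The 12 B cell markers had a median of 0.18. At an unadjusted limma p below 0.05, 1 of them was higher (Cd72, 0.54) and 1 lower (Pax5). The 16 proliferation genes had a median of 0.14, with 3 higher and 1 lower (Aurkb, -0.42) at that p. The part of these differences in the values of the respiratory chain was not tested. In sorted cells, fewer cells of a type and less RNA per cell cannot be told apart.

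The respiratory chain was broadly expressed in both genotypes. Of the 116 probes, 110, which cover 80 genes, were well above background in all 4 channels. By the filter used for the tests, which asked that one genotype be well above background on both arrays, 94.8% of member probes and 63.2% of all probes were kept. The share was 53 of 56 probes for complex I, 17 of 20 for complex IV, and every probe of complexes II, III and V. Probe levels after normalization, on the log2 scale, had medians of 13.88 and 13.95 in the wild-type and 13.71 and 14.07 in the knock-out. The lowest signals called well above background on the same scale lay between 6.17 and 6.52.

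The probes that missed the filter fell into 2 kinds. Cox8b and Cox8c, complex IV isoforms restricted to particular tissues, were not well above background in any channel, and Cox4i2, the isoform known from lung, reached that mark in the knock-out on array 1 and in the wild-type on array 2. The other 3 were second probes for Ndufab1, Ndufs1 and Ndufs4 designed on cDNA clone sequences, and each of these genes had another probe with a clear signal. Of the further restricted isoforms, the heart and muscle forms Cox6a2 and Cox7a1 and the testis form Cox6b2 were above background in both genotypes. Cox6a2 had log2 levels of 7.07 and 7.17 in the wild-type and 6.86 and 7.19 in the knock-out. Their mean log2 ratios were -0.09, -0.01 and 0.07 for Cox6a2, Cox7a1 and Cox6b2. All 3 had opposite signs on the arrays, as did 44.7% of all probes.

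No respiratory chain probe differed between the genotypes after adjustment. At a limma adjusted p of 0.05, 0 of 110 members passed, and the lowest adjusted p among them was 0.302. Over all 26003 probes tested, 31 passed (0.119%), of which 18 were higher (0.0692%) and 13 lower (0.05%) in the knock-out. At an unadjusted limma p of 0.05, 6 members passed, or 5.45%, against 2553 of all probes (9.82%). Of these members 1 was higher (0.909%, against 3.7% of all probes) and 5 were lower (4.55%, against 6.12%). At the background share for adjusted calls, a count of 0 among 110 probes is not a result about the members, so the intervals carry the information.

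Those intervals were close to the same width for most members, with a lowest half-width of 0.30, so their place depends mainly on the mean. The 95% limma confidence interval of the log2 ratio had a median half-width of 0.32, and it lay within 1.5-fold in either direction for 99 of 110 members (90.0%), against 80.1% of all probes. For all 110 it lay within 2-fold. The mean ratio itself was within 1.2-fold for 102 members (92.7%), against 82.6% of all probes. Mean log2 ratios ran from -0.53 to 0.34, with a standard deviation over members of 0.157, against 0.213 over all probes. Their median was -0.04 on array 1, 0.03 on array 2 and -0.01 for the mean of both, while the median over all probes was -0.01, -0.02 and -0.01. On both arrays 28 members were above 0 (25.5%, against 25.2% of all probes) and 24 below 0 (21.8%, against 30.0%). The other 58 (52.7%, against 44.7% of all probes) had opposite signs.

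**Figure D1:**
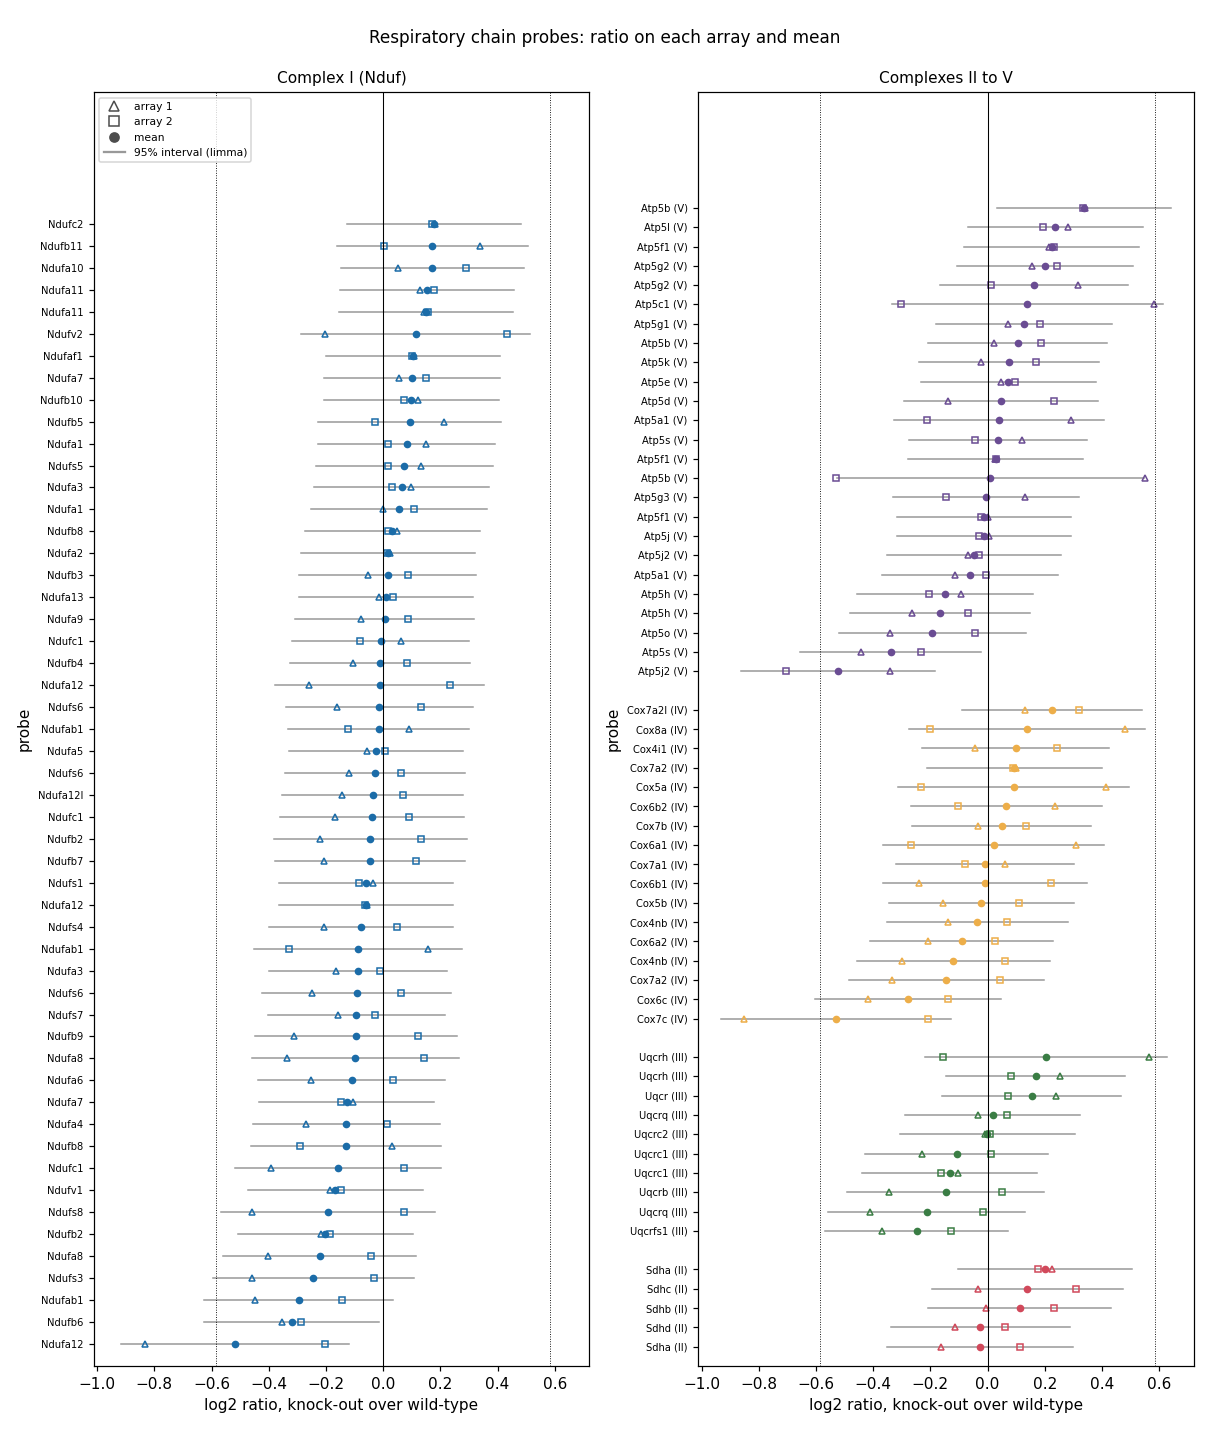
Knock-out over wild-type log2 ratio (x axis) for 109 of the 110 probes above background (y axis, one row each, sorted by mean within a complex): triangles are array 1, squares array 2, filled circles the mean of both, and grey lines the 95% limma interval. Dotted lines mark 1.5-fold; 98 of the intervals drawn lie inside them, and the lowest means are those of Cox7c, Atp5j2 and Ndufa12.

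Complex I, the largest of the assemblies, gave 53 probes of 38 genes with a median log2 ratio of -0.10 on array 1, 0.03 on array 2 and -0.03 for the mean. Its 7 conserved core subunits encoded in the nucleus hold the flavin and the iron-sulphur clusters. Their median was -0.09, and 4 of the 7 were below 0 on both arrays, 0 above 0 on both. Over all probes these shares were 30.0% and 25.2%, and with 7 probes the counts are no result about the core. Ndufv1, the subunit that binds NADH, had levels of 13.87 and 13.42 in the wild-type and 13.68 and 13.27 in the knock-out, with ratios of -0.18 and -0.15. Ndufs3 had ratios of -0.46 and -0.03, and Ndufs8 of -0.46 and 0.07. Ndufv2 had -0.20 on array 1 and 0.43 on array 2. The core had a median of -0.18 on array 1 and -0.03 on array 2, beside -0.10 and 0.03 for all of complex I. No core probe passed either test.

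Among the accessory subunits of complex I, the highest means belonged to Ndufc2 (0.18), Ndufb11 (0.17) and Ndufa10 (0.17). Ndufc2 was the most even of them, with wild-type levels of 14.30 and 14.23, knock-out levels of 14.48 and 14.40, and ratios of 0.18 and 0.17. Ndufb6, a subunit of the membrane arm, had wild-type levels of 13.23 and 12.75 and knock-out levels of 12.88 and 12.46. Its ratios of -0.35 and -0.29 gave a mean of -0.32 ± 0.13 (SE, n = 2) and a limma adjusted p of 0.489. On each array the knock-out pool was the lower one, but the levels of the 2 arrays overlap between genotypes. Ndufab1, the mitochondrial acyl carrier protein, had -0.30 on its brightest probe and -0.02 and -0.09 on the others. The assembly factors Ndufaf1 and Ndufa12l were at 0.10 and -0.04.

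Ndufa12 had the lowest mean of complex I, but only on 1 of its 3 probes. That probe lies at chr10:93629774-93633088 on mm8, plus strand, a stretch longer than the 60 bases of the probe, so that it spans an intron. Its wild-type levels were 10.66 and 10.94 and its knock-out levels 9.83 and 10.74. The ratios were -0.83 and -0.20, the mean was -0.52 ± 0.17 (SE, n = 2), 1.43-fold lower, and the limma adjusted p was 0.378. A second probe at chr10:93629794-93633108 is shifted by 20 bases and shares 40 bases with the first. Its levels were 12.94 and 12.99 in the wild-type and 12.68 and 13.23 in the knock-out, with ratios of -0.26 and 0.24 and a mean of -0.01. The third probe, at chr10:93650616-93650675, gave -0.06 on both arrays. The difference therefore rested on the dimmest of the 3 probes, and the overlapping sequence beside it did not carry it. Both overlapping probes are shown 5′ to 3′ with the shared bases in capitals, since they read nearly the same stretch of the transcript.
Ndufa12, mean log2 ratio -0.52: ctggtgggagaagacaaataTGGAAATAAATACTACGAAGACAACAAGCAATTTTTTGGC
Ndufa12, mean log2 ratio -0.01: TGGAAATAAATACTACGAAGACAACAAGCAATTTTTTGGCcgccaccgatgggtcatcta

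Complex II, succinate dehydrogenase, is the one complex of the chain made wholly from nuclear genes and the one that also belongs to the citric acid cycle. Its 5 probes had the highest median of the complexes, 0.11, made of -0.03 on array 1 and 0.18 on array 2. Relative to the median of all probes it was 0.12 with loess and -0.04 with median centring of the arrays, so its direction depended on the scaling. Sdhc, a membrane anchor, had levels of 11.23 and 11.48 in the wild-type and 11.20 and 11.79 in the knock-out, with ratios of -0.03 and 0.31. Sdhb, the iron-sulphur subunit, had ratios of -0.01 and 0.23. Sdhd, the other anchor, had -0.11 and 0.06. Sdha, the flavoprotein, had 2 probes, at means of 0.20 and -0.03, and the first was above 0 on both arrays (0.22 and 0.18). None of the 5 had an unadjusted p below 0.05, and all 5 intervals lay within 1.5-fold.

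Complex III, the cytochrome bc1 complex, gave 10 probes of 7 genes with a median of -0.05. Uqcrfs1, the Rieske iron-sulphur protein, had the lowest mean. Its wild-type levels were 14.30 and 14.36 and its knock-out levels 13.93 and 14.23. The knock-out pool was thus lower on both arrays, as in 30.0% of all probes. Its ratios were -0.37 and -0.13, with a mean of -0.25 ± 0.14 (SE, n = 2) and a limma adjusted p of 0.627. The core protein Uqcrc2 had ratios of -0.01 and 0.01, and the core protein Uqcrc1 had means of -0.13 and -0.11 on its 2 probes. Uqcrq had -0.21 on a dim probe and 0.02 on a bright one. Uqcrh, the hinge protein, had means of 0.20 and 0.17, but the ratios of its brighter probe were 0.56 and -0.16. Uqcr (now Uqcr11) was at 0.15, and its ratios of 0.24 and 0.07 were both above 0.

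Complex IV gave 17 probes of 15 genes with a median of -0.01. Only 4 of the 17 went the same way on both arrays. Cox7c, a small subunit expressed in all tissues, had the lowest mean of all members. Its probe lies at chr13:86518268-86519145 on mm8, minus strand, and spans an intron. The wild-type levels were 12.25 and 12.31, and the knock-out levels were 11.40 and 12.11. The knock-out pool was thus lower on both arrays, as in 30.0% of all probes. The ratios were -0.85 and -0.21, with a mean of -0.53 ± 0.17 (SE, n = 2), 1.44-fold lower, and a limma adjusted p of 0.372. It is the one probe for this gene on the array. Cox6c followed with ratios of -0.42 and -0.14 and a mean of -0.28. The highest mean was that of Cox7a2l, a factor in the assembly of supercomplexes, with ratios of 0.13 and 0.32 and a mean of 0.23. The 5 isoforms that are expressed in all tissues and have a restricted counterpart are Cox4i1, Cox6a1, Cox6b1, Cox7a2 and Cox8a. They had a median of 0.06 over 6 probes, and 5 of these 6 had opposite signs on the arrays. A channel was scaled up in 5 of the 6, and a count over 6 probes is no result about the isoforms.

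Complex V gave 25 probes of 16 genes with a median of 0.04, which was -0.02 relative to all probes with the scanner program's own log ratio and -0.08 with median centring, so its direction was not stable. The rotating c ring is made from 3 genes, Atp5g1, Atp5g2 and Atp5g3, that encode the same mature protein. Their 4 probes had a median of 0.15, and 3 of them were above 0 on both arrays, as were 25.2% of all probes. Atp5g1 lies on chromosome 11 at 3.07 Mb from the Ccr7 probe, a stretch where a knock-out strain can keep sequence of the donor strain, and its ratios were 0.07 and 0.18. Whether donor sequence lies under its probe was not tested. The membrane subunits Atp5l and Atp5f1 (now Atp5pb, the peripheral stalk) had probes with means of 0.24 and 0.22. Atp5l had ratios of 0.28 and 0.19, and this probe of Atp5f1 of 0.22 and 0.23. The other 2 probes of Atp5f1 were at 0.03 and -0.01.

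Atp5b, the catalytic beta subunit, had the highest mean of all members, again on 1 probe of 3. That probe, at chr10:127488462-127488521 on mm8, plus strand, had wild-type levels of 13.07 and 13.80 and knock-out levels of 13.41 and 14.13. The ratios were 0.34 and 0.33, with a mean of 0.34 ± 0.13 (SE, n = 2), 1.26-fold higher, and a limma adjusted p of 0.462. The knock-out pool was higher on each array by nearly the same amount. The upstream probe gave 0.02 and 0.19. The brightest and most downstream probe, at chr10:127493148-127493207, gave 0.55 and -0.53, so its mean of 0.01 covers the widest disagreement between the arrays of any member. The 8 probes of the 5 subunits of the F1 head had a median of 0.06, with Atp5d at 0.05 and Atp5e at 0.07. The probe with the highest mean is shown 5′ to 3′, followed by both probes of Atp5h, the d subunit of the stalk, which overlap by 20 bases (capitals) on the minus strand of chromosome 11 and gave nearly the same ratio.
Atp5b, mean log2 ratio 0.34: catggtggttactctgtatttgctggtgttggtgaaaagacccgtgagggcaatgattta
Atp5h, mean log2 ratio -0.17: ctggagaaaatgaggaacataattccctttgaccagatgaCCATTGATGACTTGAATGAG
Atp5h, mean log2 ratio -0.15: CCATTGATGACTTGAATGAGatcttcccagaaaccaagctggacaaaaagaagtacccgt

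The lowest means of complex V were also held by single probes. Atp5j2, the f subunit, had a probe designed on a cDNA clone at chr5:145443332-145443391 on mm8 with wild-type levels of 10.03 and 9.72 and knock-out levels of 9.69 and 9.01. Its ratios were -0.34 and -0.70, the mean was -0.52 ± 0.15 (SE, n = 2), and its limma adjusted p of 0.302 was the lowest of all members. On both arrays the knock-out pool was the lower one, as in 30.0% of all probes. The RefSeq probe of the same gene, at chr5:145438111-145438170, had wild-type levels of 15.13 and 15.29 and knock-out levels of 15.06 and 15.26, with a mean ratio of -0.05. Atp5s had -0.34 on 1 probe (adjusted p 0.477) and 0.04 on the other. Atp5o, the stalk subunit also called OSCP, had a single probe with ratios of -0.34 and -0.04.

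Genes with several probes give a measure of how far a ratio depends on the probe. For 24 genes at least 2 probes were above background, and the range of their means had a median of 0.155. It was below 0.2 for 14 genes and reached 0.507 for Ndufa12, 0.474 for Atp5j2, 0.375 for Atp5s and 0.327 for Atp5b. Of the 6 members with an unadjusted p below 0.05, 4 were probes of these 4 genes, and in each case no other probe of the gene was below that p. The remaining 2, Ndufb6 and Cox7c, had 1 probe each. Among 8 pairs of probes that overlap on the genome, the gap between means had a median of 0.0708 and ran from 0.003 in Ndufa11 to the 0.507 of Ndufa12. Cox7a2, with 48 shared bases, had a gap of 0.238.

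**Figure D2:**
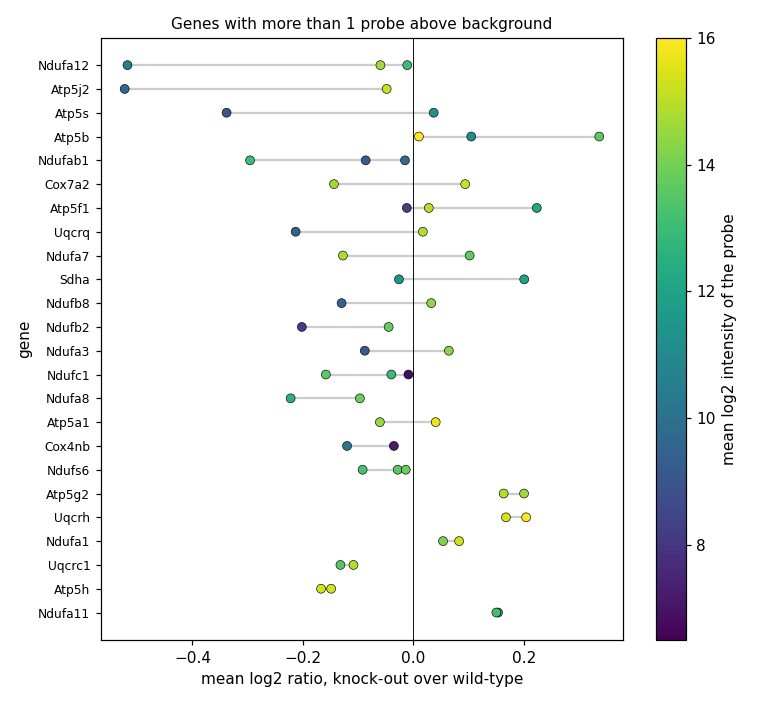
Mean knock-out over wild-type log2 ratio (x axis) of each probe for the 24 genes with more than 1 probe above background (y axis, ordered by the range), with points coloured by the probe's mean log2 intensity. The range is widest in Ndufa12, Atp5j2, Atp5s and Atp5b, at 0.507, 0.474, 0.375 and 0.327, and is 0.003 in Ndufa11.

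The members are bright, and the brightest disagreed between the arrays. Each array was also scanned at a lower gain, and the brightest spots take their value from that scan, scaled up. This held for at least 1 channel in 56 of the 110 members (50.9%), against 7.05% of all probes. In the 23 members with a mean log2 intensity of 15 or more, the median ratio was 0.12 on array 1 and -0.03 on array 2. Of these 23, 9 (39.1%) were above 0 on array 1 and below 0 on array 2, against 386 of all 651 probes of that brightness (59.3%). The correlation between arrays over the 23 members was -0.64. All 651 probes of that brightness had medians of 0.31 and -0.17 and a correlation of -0.63. Both correlations are over probes of the same 2 arrays, which share their pools and scans, and probes are not independent replicates.

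Of these 9 members, 5 belong to complex V, 3 to complex IV and 1, the brighter Uqcrh probe, to complex III. Atp5c1, the central stalk subunit, had ratios of 0.58 and -0.30, Cox8a of 0.48 and -0.20, Cox5a of 0.41 and -0.23, Cox6a1 of 0.31 and -0.27, and the brighter probe of the catalytic alpha subunit Atp5a1 of 0.29 and -0.21. In each the channel labelled with Cy5 was the higher one, whichever genotype it held. In the authors' deposited table of log2 ratios the correlation was -0.38 over the same 23 probes and 0.03 over all 651, and Cox6a1 had -0.28 and -0.06. In the 63 members between 12 and 15 the medians were -0.11 and 0.07 and the correlation was 0.50, and in the 24 members below 12 it was 0.22. Among the 54 members with no scaled-up channel, 6 (11.1%) had an unadjusted p below 0.05, near the 9.91% of all such probes. Among the 56 others 0 did, against 8.57% of all such probes. The part of dye, scan and pools in these values was not tested.

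**Figure D3:**
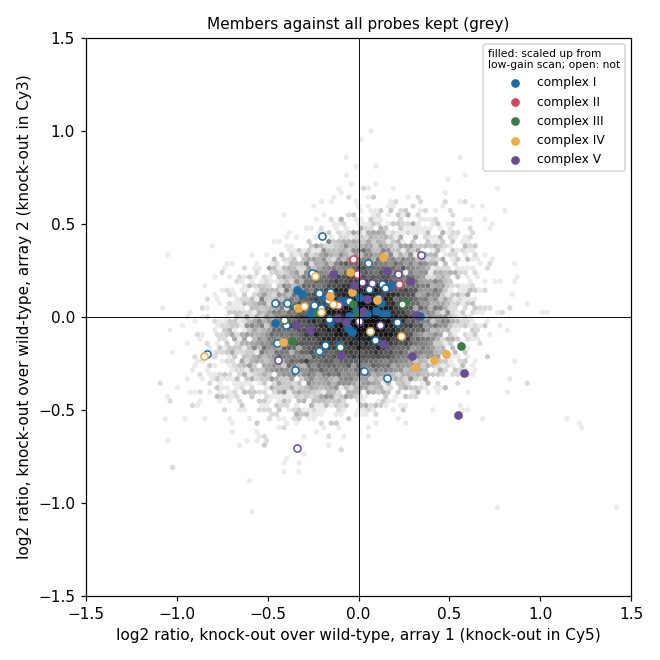
Knock-out over wild-type log2 ratio on array 1 (x axis) against array 2 (y axis) for the 110 members, coloured by complex, over all probes kept in grey; axes are cut at 1.5, and filled points took a value from the lower-gain scan. Of the members, 28 lie above 0 on both axes, 24 below 0 on both and 58 have opposite signs, and the points farthest to the lower right are the brightest Atp5b probe and Atp5c1.

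**Figure D4:**
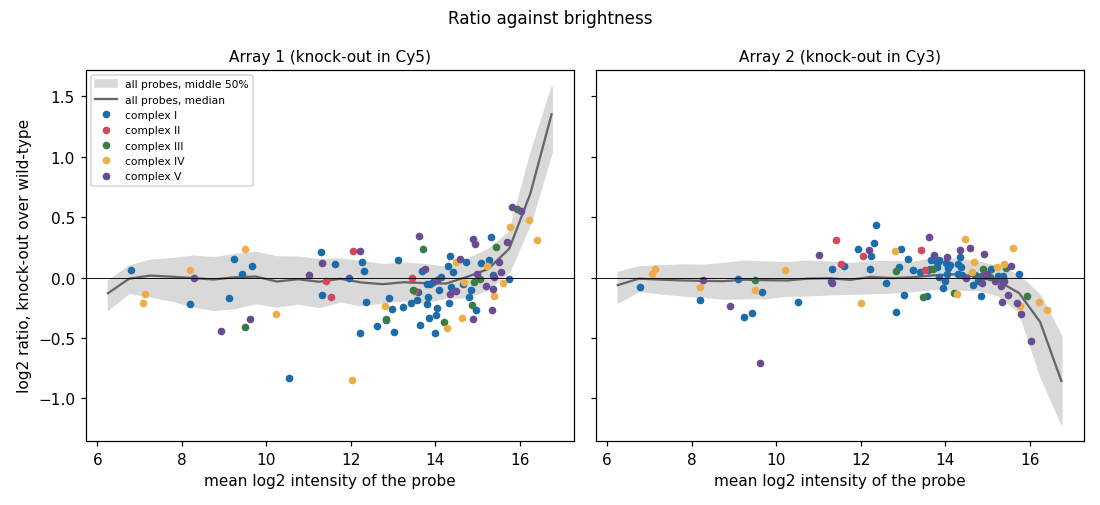
Knock-out over wild-type log2 ratio (y axis) against the mean log2 intensity of the probe (x axis) on each array, with members coloured by complex; the grey line and band are the median and the middle 50% of all probes kept in steps of intensity. Members of 15 or more have medians of 0.12 on array 1 and -0.03 on array 2, beside 0.31 and -0.17 for all probes of that brightness.

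The position of a probe on the gene was also compared. All 116 probes are 60 bases long. On mm8, 24 members above background span an intron, and their median ratio was -0.10 on array 1, 0.09 on array 2 and -0.01 for the mean. The 86 members that lie in 1 stretch of the genome had medians of -0.03, 0.02 and -0.01. An unadjusted p below 0.05 was found for 3 of the 24 (12.5%) and 3 of the 86 (3.49%), against 9.82% of all probes. A channel was scaled up in 4 of the 24 probes and in 52 of the 86, so the groups also differed in brightness.

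Promoters of respiratory chain genes are known for sites of the transcription factors NRF1, GABP (an ETS factor) and YY1. In windows of 300 bases around the gene starts from RefSeq (GRCm38.p6), 68 of the 83 genes were matched, with 73 windows. The NRF1 motif GCGCANGCG was found on either strand in 21 of these windows (28.8%), against 6.25% of all 32851 windows. The GABP motif CCGGAAG was found in 17 (23.3%, against 8.86%) and the YY1 motif AAGATGGC in 10 (13.7%, against 2.75%). The shares do not take base composition into account, and a match is no sign of binding. Among the genes of these factors on the array, Gabpa, the DNA-binding subunit of GABP, had ratios of -0.64 and -0.25. Its mean was -0.45, with a limma adjusted p of 0.378. The other GABP genes, Gabpb1 and Gabpb2, had means of 0.03 and -0.21. Nrf1 had ratios of 0.20 and -0.13, and Yy1 had a mean of 0.01.

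Lists of related mitochondrial genes and of glycolysis genes gave no adjusted call either. Of 13 genes that include cytochrome c and the electron-transferring flavoproteins, 0 had an unadjusted p below 0.05; Cycs, cytochrome c itself, was at -0.02 and Cyc1, the cytochrome c1 of complex III, at -0.05. The widest means of the same sign on both arrays in that list were those of Uqcc1 (-0.20) and Etfdh (-0.16). Of 25 assembly factors, 1 was higher and 2 lower at that unadjusted p. Oxa1l, the inner membrane insertase, had ratios of 0.48 and 0.45, and Timmdc1, a complex I assembly factor, of -0.31 and -0.80, with limma adjusted p of 0.303 and 0.307. Sco1, a copper carrier for complex IV, was at -0.36. Of 19 regulators of mitochondrial biogenesis, 1 was lower, Gabpa, while Tfb2m was at -0.31 and Tfam, the packaging factor of mitochondrial DNA, was at 0.12. In the citric acid cycle 1 of 13 genes was lower, Fh1 (fumarase) at -0.31, while Idh3b was at 0.17. Of 10 carriers and channels 0 had such a p, with Slc25a3, the phosphate carrier, at 0.23 and Vdac2 at 0.11. Of 14 glycolysis genes, 2 were higher, Gapdh at 0.47 and Eno1 at 0.40, and 1 lower, Pfkm at -0.42. Each gene of these lists, and each cell marker, was counted on its brightest probe above background. The background shares of 3.7% higher and 6.12% lower are over all probes. On the brightest probe of every gene, 9.12% had an unadjusted limma p below 0.05 in either direction. Beside these shares, counts of this size are no result about the lists.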

How the data were processed

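Expression was measured on 2 two-colour Agilent arrays with swapped dyes. The deposited scanner files hold spot intensity values, local background, quality flags and a log10 ratio, which the authors made with Agilent Feature Extraction 9.5.3.1, per the submitters' processing notes. The deposited value table holds log2 ratios, equal to that log ratio within 0.001 except at 867 and 864 spots, all scaled up from the low-gain scan, where the sources used here do not say how they were made. Probe positions are on mm8, per the file headers.

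In limma 3.58.1 (R 4.3.3), intensities were background-corrected (normexp, offset 50) and loess-normalized (span 0.3, 4 iterations, control spots at weight 0). Outlier-flagged spots were left out and spots of a probe averaged. A probe was kept where one genotype was well above background on both arrays. lmFit and eBayes were run on all 26003 probes kept (1 residual and 6.96 prior degrees of freedom), with two-sided p-values adjusted by Benjamini-Hochberg. The fit was afterwards tested on simulated data drawn from its own prior. Both pools of a genotype are separate samples, but the spread within a probe is only that between 2 pool pairs. A dye effect stays in that spread. The p-values, SEs and intervals use it moderated toward a prior fitted over all probes. That prior carries most of the degrees of freedom. Channel levels were taken after Aquantile scaling. Named genes are, for each complex, up to 3 of the largest means in each direction among probes of the same sign on both arrays, complex I core genes, all of complex II, the complex IV isoforms, the F1 and c ring genes, the 3 genes whose probes differ most, non-subunits, and 2 genes of each other list. Others, such as the brightest members of opposite sign, were picked after their values were seen. One member is left out of the text and of the plot of single probes. Members and lists were chosen with earlier results of these data known. Of the 116 member probes, 101 were named through the accession, 12 through a symbol and 3 through a synonym.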

Additional observations from a re-analysis of the deposited data

How the results depend on the processing

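No respiratory chain probe passed the threshold under any of the alternatives run, and the lowest adjusted p of a member ranged from 0.165 to 1. The count of calls over all probes ran from 0 to 124, against 31. With 1 array left out there is no residual degree of freedom, so calls were not made. The median ratio of all members shifted with the scaling: with median centring of the arrays it was -0.27 (complex I -0.31, II -0.20, III -0.33, IV -0.19, V -0.24) while that of all probes was -0.16, and with no normalization it was -0.49 (-0.53, -0.42, -0.55, -0.41 and -0.46) against -0.38. Relative to all probes the members were thus at -0.11 under both. Complex III was at -0.14 without scaled-up spots and between -0.0681 and 0.0104 with 1 array left out. Complex IV was at -0.0765 in the deposited table. Complex V was at -0.0191 with the scanner program's log ratio, -0.0147 in the deposited table and between -0.0242 and 0.0265 with 1 array left out. Each of the 12 medians with 1 array left out is the median of the other array alone, and 6 of them had the opposite sign to the mean of both, among them complex II at -0.03 without array 2. Of 50 further medians that moved by less than the spread between arrays, 4 changed sign, all of them near 0. Leaving out the 5 genes that are no subunits was an alternative chosen after seeing the data. The pools are paired by array, and the fit on ratios within an array is already the paired analysis. With 2 arrays the median half-width of an interval was 0.32 (log2), which limits what could be detected.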
